A study of Mus musculus with 4 samples.

Results

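The 54 genes described here encode the machinery that carries a new secretory protein across the membrane of the endoplasmic reticulum (ER) and on to the Golgi. They were taken by symbol from a list, and all 54 were found among the 28694 genes of the count tables. The list holds 6 genes of the signal recognition particle (SRP) and its receptor, 9 of the translocon, 5 of signal peptidase, 8 of oligosaccharyltransferase, 8 of the COPII coat, 7 of the COPI coat and 11 cargo receptors. They were measured in single mouse intestinal epithelial cells from 4 libraries, 2 from distal colon (DC 1 and DC 2) and 2 from section 8 of the small intestine (Si8 1 and Si8 2). Every library came from RedMUC298trTg mice of 6-8 weeks, with no treatment named, and living goblet cells had been sorted on whether they showed the strain's mCherry signal, with a C57Bl6 mouse as the negative control. The sources used here give neither the number of mice behind a library nor whether cells without mCherry were left out. Nothing says that the libraries came from separate animals, so the p-values measure only the spread between these libraries.

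Goblet cells fill and secrete mucus granules, and their main product, the mucin Muc2, is a very large glycoprotein that must be threaded into the ER, trimmed, glycosylated, folded and exported. SRP binds the signal peptide of a nascent chain and docks on its receptor, the Sec61 channel admits the chain, signal peptidase removes the signal peptide and oligosaccharyltransferase attaches N-linked glycans. COPII coats then bud vesicles from the ER towards the Golgi, COPI coats return membrane and escaped ER proteins, and cargo receptors select what enters either vesicle.

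The libraries held 1937, 5098, 1536 and 2256 barcodes in the order DC 1, DC 2, Si8 1, Si8 2, with median depths from 12162.5 to 21127 unique molecular identifiers (UMIs). After filters on genes, mitochondrial share and doublets, 10243 of 10827 barcodes remained. Clusters were named from markers of the intestinal cell types, after every listed gene had been kept out of the clustering. Goblet-like cells numbered 1103, 2338, 1084 and 1123, and absorptive-like cells, although the labels name goblet cells alone, 240, 1036, 167 and 344. The 34 goblet markers took 13.9%, 13.3%, 28.8% and 29.3% of the UMIs of goblet-like cells, with none of the 34 at 0 in DC and Best2 alone at 0 in Si8. Different clusters held the most goblet-like cells in different libraries: cluster 2, led by Rasd1, Cyr61 and Atf3, held 31.5% in DC 1, cluster 5, led by Reg4, Ccl9 and Fkbp11, 26.3% in DC 2 and 27.0% in Si8 1, and cluster 4, led by Zg16, Clca1 and Fcgbp, 44.6% in Si8 2. Pairs of libraries shared from 1 to 16 barcodes, at most 0.709% of the smaller library.

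All 54 members together took a smaller part of the transcriptome of goblet-like cells in the colon than in the small intestine. Their summed share was 1.18% and 1.37% of all UMIs in DC 1 and DC 2 and 1.70% and 1.66% in Si8 1 and Si8 2. Both colonic libraries lay below both small intestinal ones, by 0.404 percentage points on average, and the exact two-sided permutation test gave p = 0.33, the smallest that 2 against 2 libraries allow. The 10 most abundant genes, Tff3 and Zg16 among them, took 16.1% and 15.1% of UMIs in DC and 27.8% and 28.1% in Si8. With those genes out of the denominator the members' share was 1.41%, 1.61%, 2.36% and 2.31%. Each of the 7 steps had a lower summed share in both DC libraries than in either Si8 library. The relative gap was wide for signal peptidase, at 0.105% and 0.122% against 0.175% and 0.180%, and narrow for SRP, at 0.0701% and 0.0780% against 0.0805% and 0.0817%.

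**Figure D1:**
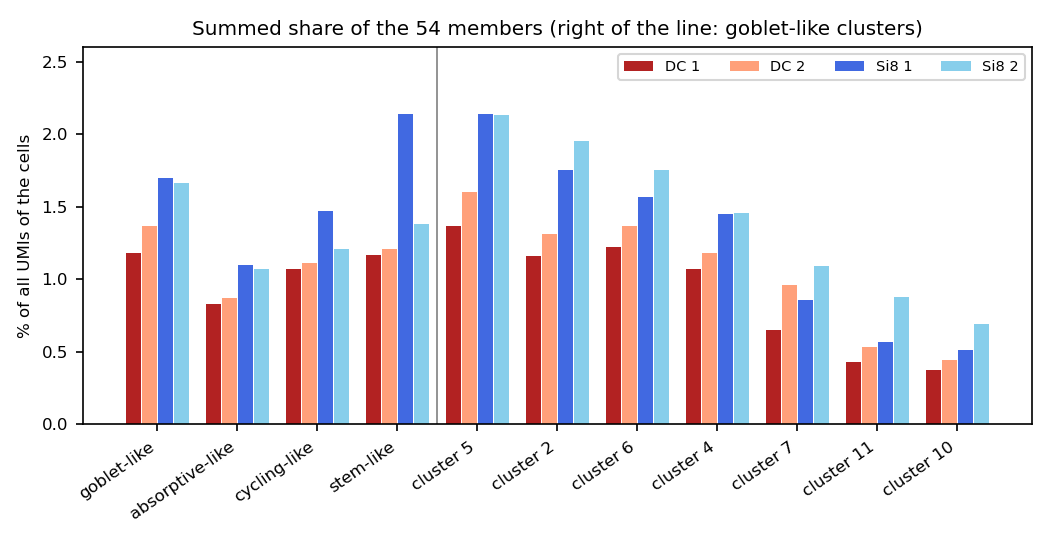
Summed share of the 54 members, as percent of all UMIs of the cells named on the horizontal axis, with 1 bar per library. Left of the line are cell classes and right of it the goblet-like clusters, of which cluster 5 had the highest share in every library (1.37%, 1.60%, 2.14% and 2.13%).

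Gene by gene, 49 of the 54 members were lower in DC goblet-like cells and 0 were higher (edgeR quasi-likelihood test with TMM scaling, Benjamini-Hochberg adjusted p under 0.05 over all genes). Over all 11858 tested genes 22.9% were lower in DC and 21.6% higher. The median log2 difference, DC minus Si8, was -0.88 over the members and 0.05 over all genes, and all 54 members lay below the median of all genes. No member was higher in DC at an unadjusted p under 0.05 either, and DESeq2 called 49 lower and 0 higher. Markers of other cell types also moved in the unthinned goblet-like sums. The 26 colonic absorptive markers took 0.392% and 0.375% of goblet-like UMIs in DC and 1.0% and 0.944% in Si8. Of these 1 was at 0 in DC and 4 in Si8, and of 24 tested 10 were higher in DC and 9 lower. The small intestinal absorptive list took 0.0295% and 0.0284% of goblet-like UMIs in DC, with 10 of its 33 genes at 0, Fabp1 and Sis among them, and 0.223% and 0.277% in Si8, with Lct alone at 0, and 23 of 26 tested genes were lower in DC. The 20 enteroendocrine markers took 0.00153% and 0.00234% against 0.0888% and 0.0655%, with 6 of them at 0 in DC and 3 in Si8, and the 20 stem markers 0.0865% and 0.0637% against 0.0325% and 0.0301%, with 3 and 1 at 0. The median mitochondrial share of all barcodes was 5.36% and 5.23% in DC and 2.90% and 3.70% in Si8. The part of these in the members' difference was not tested.

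The scaling sets how many of these differences count as falls. TMM gave DC sums factors of 1.208 and 1.187 and Si8 sums 0.8427 and 0.8272. With library totals alone the median of all genes moved from 0.05 to 0.57 and that of the members from -0.88 to -0.36. Then 26 members were lower and 3 higher, where 10.7% of all genes were lower and 55.5% higher, so that 83.8% of all calls favoured DC, against 48.6% with TMM. All 54 members again lay below the median of all genes. The log2 difference of 13 members turned positive without TMM, namely Srp14, Srp19, Srp72, Sec62, Sec63, Ddost, Sec23a, Sec24a, Sec31a, Sar1b, Copa, Copb1 and Arcn1, and of these Sec63, Sec24a and Sec31a were called higher. In CPM, the UMIs of a gene scaled to the total of the goblet-like cells of a library and free of TMM factors, both DC libraries lay below both Si8 libraries for 37 members and above them for 9. Over all tested genes these shares were 15.5% and 70%.

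**Figure D2:**
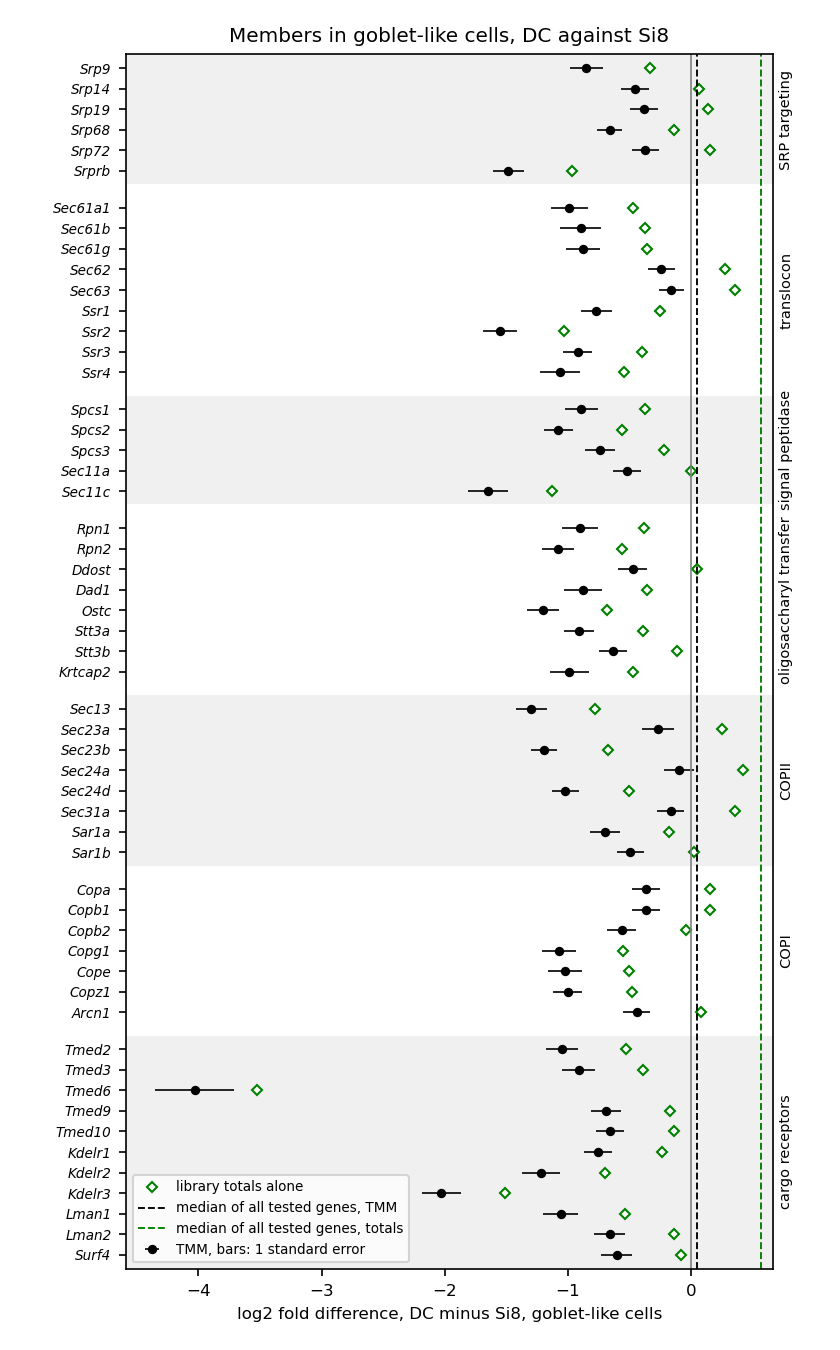
Log2 difference of each member between DC and Si8 in goblet-like cells, by step, with TMM scaling (black, bars of 1 standard error) and with library totals alone (open diamonds). Dashed lines mark the median of all tested genes under each scaling, 0.05 and 0.57, and every member lies to the left of the line of its scaling.

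All 6 SRP genes were called lower in DC, but only Srprb, the receptor subunit that anchors the receptor in the ER membrane, was called under both scalings. Srprb stood at 28.6 and 32.5 CPM in DC against 63.3 and 56.5 CPM in Si8. The regions did not overlap, and the log2 difference was -1.49 ± 0.12 (SE, n = 2 libraries per region here and below; edgeR adjusted p = 0.000108). Srp14, which with Srp9 slows elongation, had 147 and 159 CPM in DC against 144 and 149 CPM in Si8, so its regions overlapped in CPM and its call at -0.46 ± 0.12 came with the TMM factors. Srp19 and Srp72, parts of the RNA-bound core of the particle, were higher in CPM in both DC libraries and lower after TMM.

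In the translocon 7 of 9 genes were lower in DC, and the exceptions were Sec62 and Sec63, the pair that serves post-translational import. Of the 7, Ssr1 and Sec61b were not called with library totals alone. Ssr2, a subunit of the translocon-associated protein complex (TRAP) beside the channel, stood at 278 and 331 CPM in DC against 643 and 603 CPM in Si8. This was the largest difference of the step, -1.55 ± 0.14 (edgeR adjusted p = 0.000143). The other TRAP subunits Ssr1, Ssr3 and Ssr4 differed by -0.77, -0.92 and -1.07, and the channel genes Sec61a1, Sec61b and Sec61g by -0.99, -0.90 and -0.88. Sec62 ran the other way in CPM, with 288 and 285 in DC against 237 and 237 in Si8, and its TMM difference of -0.24 ± 0.11 was not called (edgeR adjusted p = 0.109). In CPM Sec62 and Sec63 were thus higher in both DC libraries, and the 7 genes of TRAP and the channel lower.

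All 5 signal peptidase genes were lower in DC, of which Spcs1, Spcs2 and Sec11c held under both scalings. The differences of the exchangeable catalytic subunits Sec11a and Sec11c were unlike in size. Sec11c had 304 and 396 CPM in DC against 750 and 784 CPM in Si8, a log2 difference of -1.65 ± 0.16 (edgeR adjusted p = 0.000224). Sec11a had 158 and 169 CPM against 164 and 164 CPM, which overlap, and differed by -0.52 ± 0.11 with TMM. Because the ratio of 2 genes within a library is free of scaling, the share of each paralog in the UMIs of its set was also taken. Sec11c made up 65.8% and 70.0% of Sec11a and Sec11c UMIs in DC goblet-like cells and 82.1% and 82.7% in Si8. The 95% binomial intervals, which cover counting error only, were 64.6% to 67.0% and 69.3% to 70.8% in DC and 81.5% to 82.7% and 82.2% to 83.2% in Si8. In absorptive-like cells the shares lay closer together, at 67.0%, 69.9%, 73.6% and 70.2%.

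All 8 oligosaccharyltransferase genes were lower in DC with TMM, and Ddost, Dad1 and Stt3b were not called with library totals alone. Ostc, which ties the Stt3a form of the enzyme to the translocon, stood at 313 and 363 CPM in DC against 556 and 532 CPM in Si8, without overlap, a difference of -1.20 ± 0.13 (edgeR adjusted p = 0.000372). Krtcap2, the other subunit of that form, differed by -0.99 ± 0.16. Of the catalytic subunits, Stt3a, which glycosylates chains as they enter the ER, differed by -0.91 ± 0.12, and Stt3b, which acts on sites that were missed, by -0.64 ± 0.11. Ddost was the smallest at -0.48 ± 0.12, with 414, 431, 427 and 393 CPM, and its regions overlapped.

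COPII was the step with the most members that were not called, 3 of 8, and in the Sec23 and Sec24 pairs 1 gene was called and the other was not. Sec23b, which activates the GTPase of the inner coat, stood at 41.2 and 40.0 CPM in DC against 66.8 and 63.1 CPM in Si8, a difference of -1.20 ± 0.11 (edgeR adjusted p = 0.000142). Its paralog Sec23a stood at 14.5 and 14.6 CPM against 12.6 and 11.9 CPM, and at -0.27 ± 0.13 was not called (edgeR adjusted p = 0.133). Sec24d, a cargo adaptor of the same coat, had 39.7 and 40.0 CPM in DC against 60.2 and 52.6 CPM in Si8 (-1.02 ± 0.11). Sec24a had 70.3 and 61.4 CPM against 52.6 and 45.5 CPM (-0.10 ± 0.12, edgeR adjusted p = 0.552, and 0.42 with library totals alone). In CPM Sec23b and Sec24d were thus lower in both DC libraries and Sec23a and Sec24a higher. Sec13 of the outer coat differed most in the step, with 86.0 and 101 CPM in DC against 164 and 156 CPM in Si8 (-1.30 ± 0.13, edgeR adjusted p = 0.000239), while its partner Sec31a, at 125 and 122 against 99.5 and 94.0 CPM, was not called with TMM.

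As shares of their pair, Sec23b took 74.0% and 73.2% in DC goblet-like cells and 84.1% in each Si8 library, and Sec24d took 36.1% and 39.4% in DC against 53.4% and 53.6% in Si8. The intervals of the regions did not meet in either pair, the nearest bounds being 77.2% and 82.1% for Sec23b and 41.4% and 51.1% for Sec24d. In absorptive-like cells Sec23b took 51.6%, 57.4%, 61.5% and 54.7% and Sec24d 38.5%, 33.8%, 41.0% and 37.2%, and there the regions overlapped. The small GTPases Sar1a and Sar1b, which start the coat, differed less in their split, with Sar1b at 38.9% and 37.3% in DC goblet-like cells and 34.2% and 35.4% in Si8. Both DC shares of Sar1b were above both Si8 shares, and the interval of DC 1, 36.9% to 40.8%, met neither Si8 interval, 32.6% to 35.7% and 34.0% to 36.8%, while that of DC 2, 36.0% to 38.7%, met the second.

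**Figure D3:**
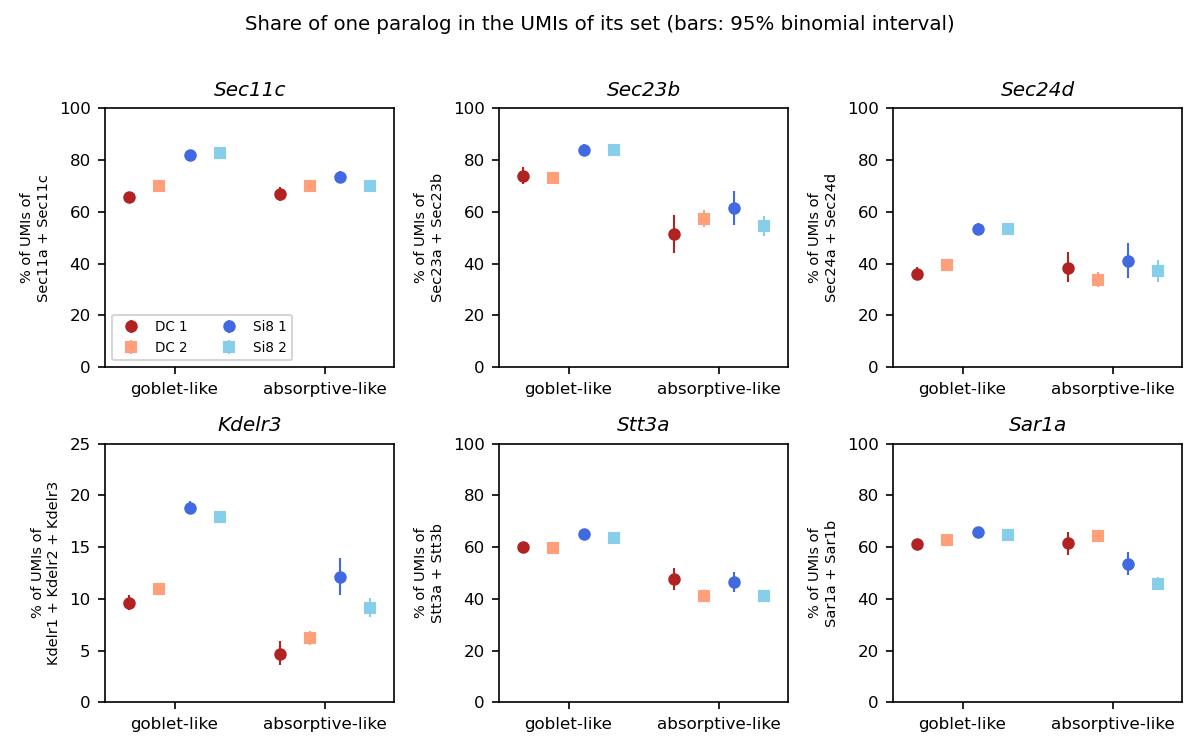
Share of 1 paralog in the summed UMIs of its set, in percent, for each library in goblet-like and absorptive-like cells, with 95% binomial intervals. The vertical axis runs to 100% except for Kdelr3, where it runs to 25%. In goblet-like cells both Si8 shares stand above both DC shares for each gene shown, Stt3a and Sar1a included.

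The starts of 3 of these COPII genes, and of Kdelr3 below, are shown because the paralogs differed between regions. Promoter windows from 250 bases before to 50 after the annotated start were taken from RefSeq (GRCm38.p6), where 43 of the 54 members matched. They gave 47 windows, of which 32 had a start within 100 bases of the 5′ end of the gene in GENCODE M21. They were searched on both strands for TGACGTGG, the unfolded protein response element, which Xbp1 and Atf6 are known to bind, and for its first letters TGACGT, so every TGACGTGG is also a TGACGT. TGACGTGG was in the window of 5 members (11.6% of those matched) and of 0.714% of all genes in the table, and TGACGT in 10 members (23.3%) and 8.37% of all genes. The 5 members were Copb1, Copb2, Kdelr3, Sec23a and Sec24d. Of the longer response elements also searched, the endoplasmic reticulum stress response element was in 0 members and its form II in Krtcap2. The start of that Krtcap2 window lies 507 bases inside the gene in GENCODE M21. The windows below run from 60 bases before the start, 5′ to 3′ on the gene's strand, with TGACGTGG or TGACGT, or its reverse complement, in capitals.
Sec24d, chr3:123267436-123267535, plus strand: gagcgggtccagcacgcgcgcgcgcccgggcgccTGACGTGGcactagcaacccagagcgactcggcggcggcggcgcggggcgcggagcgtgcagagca
Sec23b, chr2:144556169-144556268, plus strand: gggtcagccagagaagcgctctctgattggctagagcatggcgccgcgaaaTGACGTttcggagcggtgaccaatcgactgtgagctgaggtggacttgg
Sec23a, chr12:59011978-59012077, minus strand: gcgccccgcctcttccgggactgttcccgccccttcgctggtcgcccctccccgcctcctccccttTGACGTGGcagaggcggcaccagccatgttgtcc
Kdelr3, chr15:79516348-79516447, plus strand: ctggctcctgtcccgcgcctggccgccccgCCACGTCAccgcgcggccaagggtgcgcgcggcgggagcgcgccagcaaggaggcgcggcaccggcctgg
The element was thus in the window of Sec24d and Kdelr3, which were lower in DC, and in that of Sec23a, which was not called. A match is a run of letters and no evidence of binding. Sec23b has a second annotated start, 8670 bases into the gene, whose window held no TGACGT. The only Sec24a window in the table starts 6800 bases inside the gene and is not shown. Although it held TGACGT and counts among the 10 members, it does not describe the 5′ end of Sec24a, so the Sec24 pair cannot be compared by it.

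All 7 COPI genes were called lower in DC, of which Copg1, Cope and Copz1 held under both scalings. Copg1, a subunit of the coat's cargo-binding core, stood at 62.3 and 75.8 CPM in DC and 102 CPM in each Si8 library, without overlap, and differed by -1.07 ± 0.14 (edgeR adjusted p = 0.000723). Cope differed by -1.03 ± 0.14, and Copz1, the small subunit of that core, had 117 and 129 CPM in DC and 175 and 169 in the small intestine. Copa, Copb1, Copb2 and Arcn1 lay between -0.37 and -0.57. Of these Copa, Copb1 and Arcn1 changed sign without TMM, and the CPM of Copb2 and Arcn1 overlapped between the regions.

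The 11 cargo receptors were all called lower in DC with TMM, and the 2 largest differences of the whole set were among them. With library totals alone Kdelr1, Tmed9, Tmed10, Lman2 and Surf4 were not called. Kdelr3, 1 of 3 receptors that bring escaped ER chaperones back, had 53.3 and 70.5 CPM in DC against 177 and 176 CPM in Si8. Its log2 difference was -2.03 ± 0.16, a fold of 4.08 (edgeR adjusted p = 8.78e-05). Kdelr2 differed by -1.22 ± 0.16 and Kdelr1 by -0.76 ± 0.11, so the 3 receptors kept 1 direction and differed in size. Kdelr3 made up 9.65% and 11.0% of the UMIs of the 3 receptors in DC and 18.8% and 17.9% in Si8, and Kdelr1 33.9% and 27.4% against 23.2% and 21.2%. In absorptive-like cells the share of Kdelr3 was likewise lower in DC, at 4.68% and 6.20% against 12.1% and 9.11%.

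Tmed6, of the p24 family of cargo receptors, was at 0.615 and 0.688 CPM in DC goblet-like cells and 9.26 and 6.07 CPM in Si8. These levels rest on 8, 17, 153 and 127 UMIs, and the log2 difference was -4.03 ± 0.32, a fold of 16.3 (edgeR adjusted p = 8.76e-05). Among goblet-like cells a UMI of Tmed6 was found in 0.635% and 0.642% for DC against 9.41% and 8.73% for Si8, and, with cells thinned to 5000 UMIs, in 0.296%, 0.361%, 4.87% and 3.74%. In thinned absorptive-like cells it was found in 0 cells of the first 3 libraries and 1.16% of Si8 2. Within Si8 goblet-like cells cluster 5 held 19.3 and 16.4 CPM and cluster 4 0.748 and 3.04 CPM. The few Paneth-like cells of Si8, 23 and 41 in number, held 63.4 and 81.3 CPM. The 17 measured Paneth markers took 0.00987% and 0.00474% of goblet-like UMIs in DC, with 8 of them at 0, and 1.03% and 1.04% in Si8, with 0 of them at 0. All 17 were called lower in DC, and their part in the difference of Tmed6 was not tested.

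The other p24 genes differed less, by -1.05 for Tmed2, -0.91 for Tmed3, -0.69 for Tmed9 and -0.66 for Tmed10. Lman1, a lectin that carries glycoproteins out of the ER, stood at 101 and 126 CPM in DC against 165 and 166 CPM in Si8 (-1.06 ± 0.14, edgeR adjusted p = 0.00102). Its relative Lman2 and the receptor Surf4 overlapped in CPM, with TMM differences of -0.66 and -0.61.

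**Figure D4:**
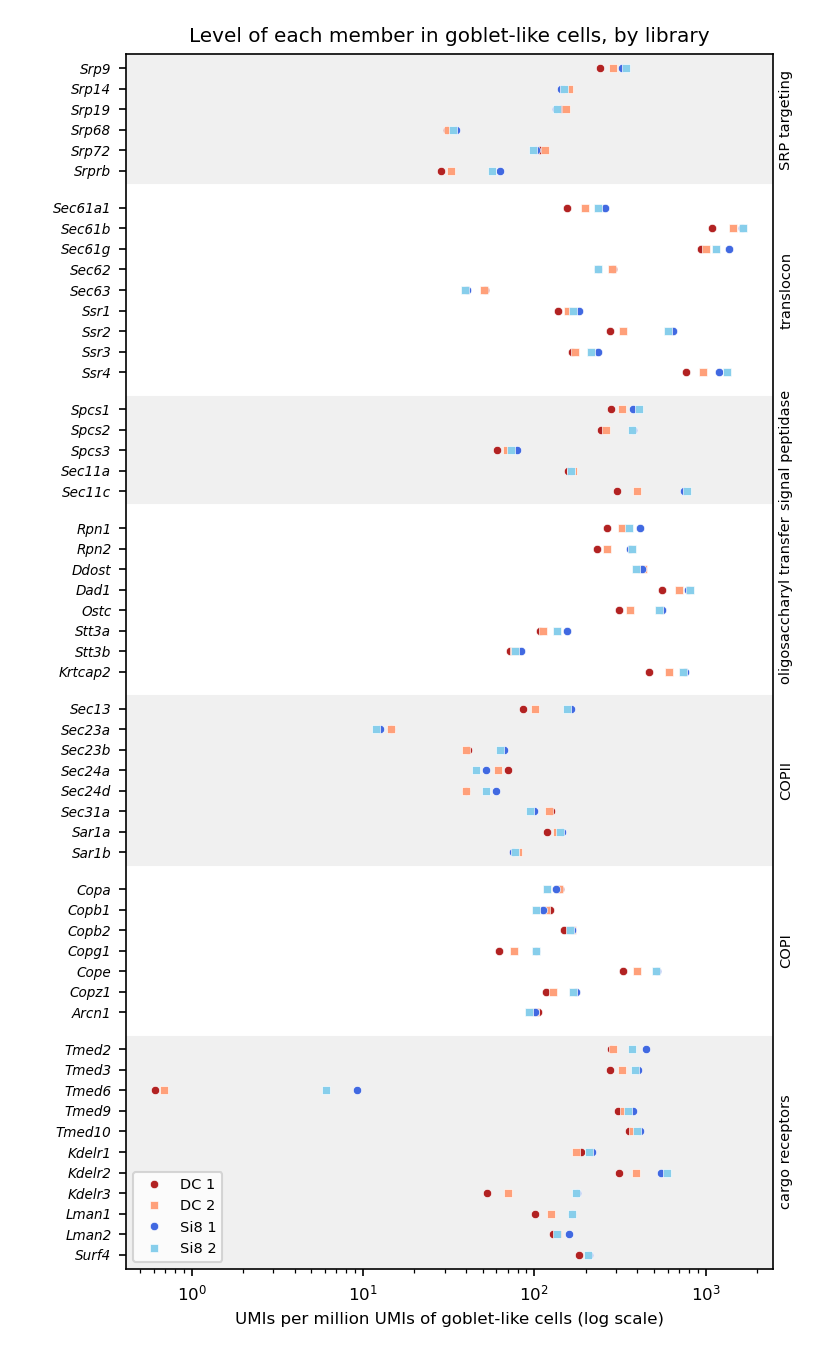
Level of each member in goblet-like cells, in CPM on a log scale, by step, with 1 point per library (circles for replicate 1, squares for replicate 2). Red points (DC) lie left of blue points (Si8) for 37 members and right of them for 9, and Tmed6 stands apart from the rest below 10 CPM.

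The regional difference was also tested in each goblet-like cluster alone (edgeR adjusted p under 0.05). In cluster 2, 45 of 54 members were lower in DC, against 17.1% of all genes tested there. Cluster 4 had 41 of 53 lower (19.1% of all genes), cluster 5 had 42 of 54 (12.0%) and cluster 6 had 40 of 54 (14.3%), and the medians over members ran from -0.76 to -0.96. Clusters 7, 10 and 11, which held 21 to 88 cells per library and were led by genes such as Mxd1 and Slfn4 or Saa1, had 3 of 52, 10 of 40 and 6 of 43 tested members lower, against 5.76%, 9.34% and 6.15% of all genes. No member was called higher in DC in any of the 7 clusters with edgeR, the tool used here. With cycling-like cells added to the goblet-like ones 32 members were lower, against 13.0% of all genes.

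Absorptive-like cells of the same libraries were compared next, to see whether the regional difference of the members was found outside goblet-like cells. Here 30 of 54 members were lower in DC and 0 higher (edgeR adjusted p under 0.05), where 13.6% of all 10849 tested genes were lower and 13.9% higher. No member was higher at an unadjusted p under 0.05, nor by DESeq2, which called 30 lower. The median over members was -0.66, against 0.03 over all genes. Oligosaccharyltransferase had 7 of 8 members lower, the translocon 6 of 9 and the cargo receptors 6 of 11. Kdelr3 again differed most among the members called, with 18.0 and 22.1 CPM in DC against 57.9 and 40.7 CPM in Si8 (-1.53 ± 0.26, edgeR adjusted p = 0.00377). Ssr2 followed with 164 and 170 against 351 and 336 CPM (-1.31 ± 0.18) and Ostc with 152 and 142 against 295 and 263 CPM (-1.20 ± 0.19). Tmed6 rested on 4, 1, 5 and 19 UMIs in these cells and was not called (edgeR adjusted p = 0.0607).

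In CPM both DC libraries lay below both Si8 libraries for 36 members and above them for 5, against 19.1% and 50.8% of all genes. The calls moved with the settings. With library totals alone 12 members were lower, against 8.88% of all genes lower and 20.4% higher, and 69.6% of all calls favoured DC in place of 50.5%, and 12 members changed sign, among them Sar1a, Sec24a, Kdelr1 and Tmed3. Without DC 1 only 6 members were called and without DC 2 only 4. Kdelr3 and Ssr2 were called with each library left out.

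In COPII the paralogs Sar1a and Sar1b differed from each other in absorptive-like cells. Sar1b, whose product is known for the export of lipoprotein particles from absorptive cells, had 54.7 and 58.8 CPM in DC absorptive-like cells against 83.0 and 97.9 CPM in Si8 (-0.93 ± 0.17, edgeR adjusted p = 0.00493). In goblet-like cells its CPM overlapped, at 75.4, 80.3, 75.3 and 77.7. Sar1b took 38.4% and 35.6% of the UMIs of the pair in DC absorptive-like cells and 46.3% and 54.2% in Si8. Sar1a, at 87.6, 106, 96.4 and 82.8 CPM there, was not called (-0.15 ± 0.20, and 0.12 with library totals alone).

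A test of the difference itself, with class by region as an interaction term, called 8 members where the regional difference was not the same in both classes. In 7 the goblet-like minus absorptive-like difference was lower in DC and in 1, Sar1b, it was higher (edgeR adjusted p under 0.05). Over 12137 genes 6.98% were lower and 5.47% higher. Sec11c had the largest value, -1.09 ± 0.15 (edgeR adjusted p = 0.00138), and was the only member called with each library left out. In absorptive-like cells it had stood at 248 and 290 CPM in DC against 331 and 324 CPM in Si8. Tmed3 followed at -0.71 ± 0.18, Sec24d at -0.71 ± 0.20 and Ssr4 at -0.63 ± 0.16, and the other 3 were Srprb, Sar1a and Kdelr1. With library totals alone 3 members were called, 1 lower and 2 higher, of which Sec11c and Sar1b were among the 8. Of all genes 3.67% were then lower and 11.2% higher, and 75.3% of all calls were on the higher side in place of 43.9%. Leaving out DC 1, DC 2, Si8 1 or Si8 2 left 1, 1, 22 or 3 members called. DESeq2 called 2 members, Sec11c and Ssr4, and with cells thinned to 5000 UMIs or with doublets kept Sec11c alone was called, so the calls of most of the 8, Sar1b included, depended on the settings.

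Members were mostly higher in goblet-like than in absorptive-like cells. High levels were not particular to goblet-like cells, whose summed share was 1.18%, 1.37%, 1.70% and 1.66%. It was 1.17%, 1.21%, 2.14% and 1.38% in the 21, 66, 11 and 26 stem-like cells, and 1.07%, 1.11%, 1.47% and 1.21% in cycling-like cells. In the few Paneth-like cells it was 0.482%, 0.962%, 0.329% and 0.332%. These other classes were not compared by a test. Between goblet-like and absorptive-like cells of the same library, 49 of 54 members were higher in goblet-like cells and 1 was lower (edgeR adjusted p under 0.05, library as a block). Of all 12137 tested genes 15.6% were higher and 15.3% lower. The median was 0.80 over the members and 0.00 over all genes. With library totals alone 40 members were higher and 2 lower, Sec23a and Stt3b, against 8.87% and 27% of all genes, while 24.8% of all calls were higher in goblet-like cells in place of 50.5%. No member took part in the clustering or in the naming of goblet-like cells. The markers that named them are those of a secretory cell type, Agr2 and Pdia5 among them, so the classes were not chosen independently of secretion. The classes also differ in depth, with median UMIs from 10550 to 18721 in goblet-like and from 13574 to 23927 in absorptive-like cells.

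Cargo receptors led the class difference, with a median of 1.17 and all 11 called with TMM. With library totals alone Lman2 and Surf4 were not called. Kdelr3 had 53.3, 70.5, 177 and 176 CPM in goblet-like cells of the 4 libraries and 18.0, 22.1, 57.9 and 40.7 CPM in absorptive-like cells. It was higher in goblet-like cells of each library, with a log2 difference of 2.02 ± 0.16 (edgeR adjusted p = 0.000408). Tmed9 and Tmed3 differed by 1.37 ± 0.12 and 1.37 ± 0.18, Lman1 by 1.22 ± 0.12 and Kdelr2 by 1.17 ± 0.15. Tmed6 differed by 1.93 ± 0.48, on few UMIs. It ran the other way in DC 1 alone, with 0.615 CPM in goblet-like and 1.16 CPM in absorptive-like cells.

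In oligosaccharyltransferase 7 of 8 members were higher in goblet-like cells and Stt3b was not called. The rise was not limited to the subunits of the Stt3a form, since Ddost, Dad1, Rpn1 and Rpn2 differed by 1.1, 0.90, 0.80 and 0.80. Of 10 other genes listed for this step 8 were higher and 0 lower, among them Tusc3 (0.91 ± 0.27) and Magt1 (0.31 ± 0.08). Ostc differed by 1.34 ± 0.10, Krtcap2 by 1.10 ± 0.11 and Stt3a by 0.90 ± 0.09, and Stt3b by -0.16 ± 0.09 (edgeR adjusted p = 0.22, and -0.42, called lower, with library totals alone). Stt3b had 72.1, 76.2, 83.3 and 77.5 CPM in goblet-like and 80.0, 92.0, 116 and 134 CPM in absorptive-like cells. Stt3a made up 59.9%, 59.8%, 65.0% and 63.6% of the pair in goblet-like cells and 47.6%, 41.0%, 46.5% and 41.3% in absorptive-like cells, so that its share in each goblet-like sum was above that in any absorptive-like sum.

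Sec23a was the member called lower in goblet-like cells, at -0.86 ± 0.12 (edgeR adjusted p = 0.00292). Its levels of 14.5, 14.6, 12.6 and 11.9 CPM in goblet-like cells stood below 26.5, 25.1, 30.0 and 35.5 CPM in absorptive-like cells of the same libraries. Sec23b was higher in goblet-like cells at 0.72 ± 0.12, as was Sec24d, the largest rise of the step, at 1.06 ± 0.19, and Sec24a at 0.59 ± 0.09. Sar1a was called (0.80 ± 0.14) and Sar1b was not (0.37 ± 0.12, edgeR adjusted p = 0.0563). Spcs2 was highest in signal peptidase (1.16 ± 0.09), Ssr2 in the translocon (1.12 ± 0.10), Cope in COPI (1.02 ± 0.10) and Srprb in SRP (0.99 ± 0.14). Srp68 and Sec63 were the other members not called.

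**Figure D5:**
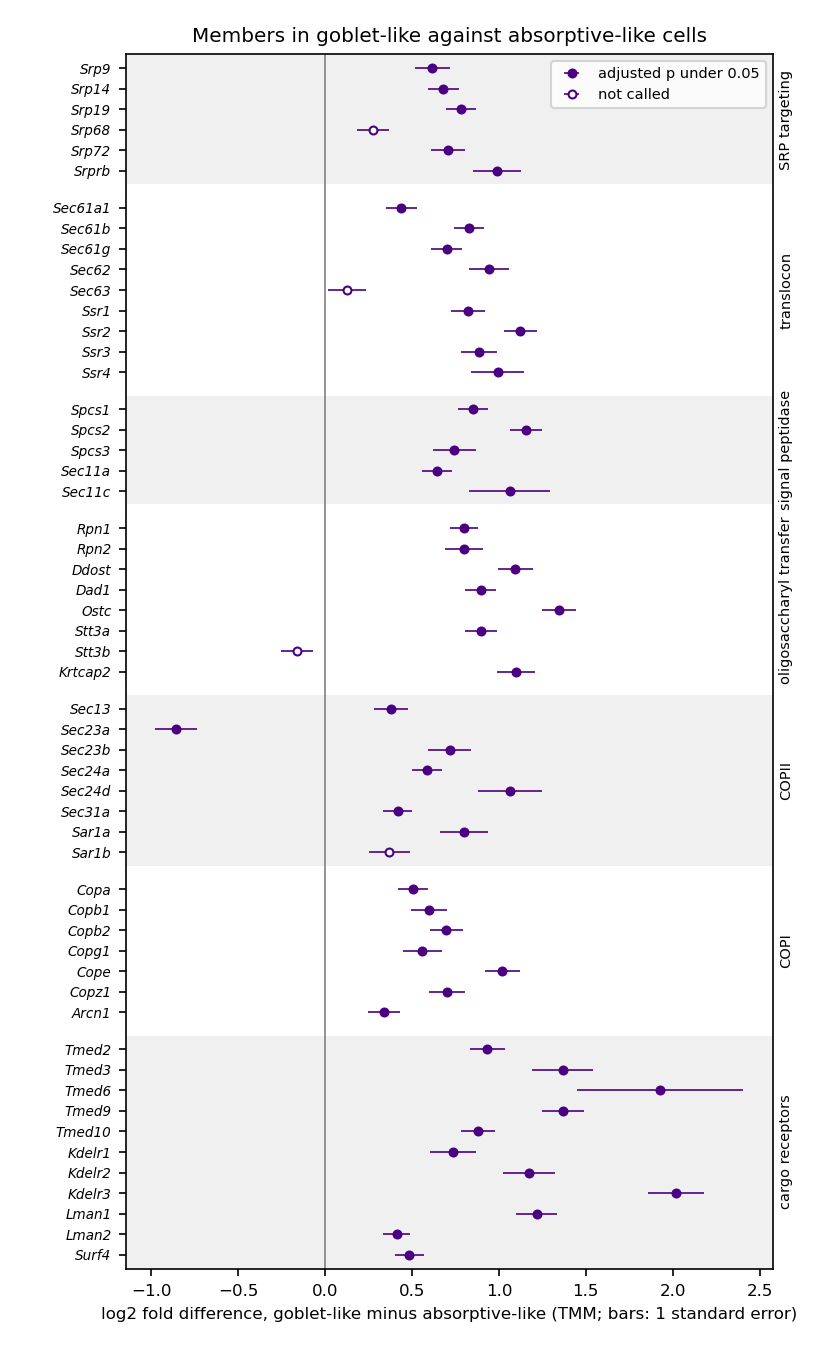
Log2 difference of each member between goblet-like and absorptive-like cells, library as a block, with bars of 1 standard error and open points for members not called. Kdelr3 lies farthest to the right at 2.02 and Sec23a farthest to the left at -0.86.

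Within goblet-like cells the members' share differed with the cluster. Cluster 5 held the highest share in every library and clusters 10 and 11 the lowest, from 0.376% to 0.880%. The planned contrast set the 2 most common clusters, 4 and 2, against each other, and there few members differed. Srp19 (0.28 ± 0.08), Ostc (0.21 ± 0.07) and Lman1 (0.37 ± 0.08) were higher in cluster 2 and 0 were lower (edgeR adjusted p under 0.05, library as a block), where 7.52% and 10.1% of 10439 genes were called. At an unadjusted p under 0.05, 3 members were lower, and DESeq2 called 1 member. Only Lman1 was called with each library left out, and each of those fits called 1 member. With library totals alone 23 members were higher, against 19.7% of all genes higher and 4.13% lower, and 82.7% of all calls were higher in place of 42.7%. Cluster 5 was set against cluster 4 after the shares had been seen. In that pair 11 members were higher in cluster 5, led by Tmed6 (2.51 ± 0.44), Lman1 (0.70 ± 0.11), Ssr2 (0.67 ± 0.10) and Ostc (0.58 ± 0.12), and Sec23a was lower (-0.60 ± 0.17), where 16.7% of 10549 genes were higher and 17.5% lower.

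Of 101 other genes listed for the same pathway 93 were tested in goblet-like cells. With TMM 47 of them were lower in DC and 3 higher, with a median of -0.40, where 22.9% of all genes were lower and 21.6% higher. The counts and medians of this list are with TMM only, and were not taken with library totals alone. That scaling moved the median of all genes from 0.0457 to 0.565, so the sign of this median depends on the scaling chosen and is not settled here. By step, 2 of 2 further SRP genes, 7 of 10 oligosaccharyltransferase genes, 6 of 13 COPII genes, 6 of 11 COPI genes, 7 of 14 cargo receptors, 9 of 14 fusion and tethering genes and 5 of 9 transcription factors were lower. The further translocon genes, which include the ER membrane protein complex, had 5 of 20 lower and 0 higher, with a median of -0.23, a share near that of all genes. Dpagt1, which starts the lipid-linked glycan that oligosaccharyltransferase transfers, had 28.7 and 27.8 CPM in DC against 64.4 and 58.8 CPM in Si8 (-1.65 ± 0.11, edgeR adjusted p = 4.03e-05). Against the trend, the p24 gene Tmed1 was at 3.84 and 4.41 CPM in DC against 0.363 and 0.669 CPM in Si8 (2.44 ± 0.37, edgeR adjusted p = 0.00159). Between classes 51 of 95 were higher in goblet-like cells and 7 lower, against 15.6% and 15.3% of all genes, with Copz2, a second zeta subunit of COPI, at 2.15 ± 0.16. In the translocon 5 of 21 were higher and 4 lower, with a median of 0.10.

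Transcription factors that are known to drive secretory genes did not share 1 direction between regions. Xbp1, the factor activated by Ire1 splicing, had 521 and 413 CPM in DC goblet-like cells and 429 and 354 CPM in Si8, which overlap, and was not called (-0.27 ± 0.15, edgeR adjusted p = 0.198, and 0.26 with library totals alone). Creb3l1 had 265 and 225 CPM in DC against 131 and 114 CPM in Si8, and was higher in DC (0.48 ± 0.13, edgeR adjusted p = 0.0206). Creb3l2 was lower (10.1 and 6.43 against 23.7 and 14.1 CPM, -1.74 ± 0.29). Creb3l4 and Atf6 were lower with TMM by -0.55 ± 0.11 and -0.40 ± 0.12, and Atf6 was at 0.12 with library totals alone. In CPM both overlapped, Creb3l4 with 133 and 140 in DC against 137 and 141 in Si8. Atf6 had 27.4 and 29.7 CPM against 28.6 and 24.1 CPM. The other 2 factors called lower, named after their values were seen, were Creb3 (46.9 and 51.5 against 68.6 and 72.7 CPM, -1.04 ± 0.12) and Atf6b (22.1 and 22.2 against 23.1 and 25.6 CPM, -0.66 ± 0.12). Thus, with TMM, 5 of 9 tested factors were lower in DC and Creb3l1 alone was higher, and the calls of Creb3l4 and Atf6 came with the TMM factors. The CPM of Atf6b lay close together, so the size of its difference rests on those factors too. Between classes Xbp1 (1.15 ± 0.09), Creb3l4 (2.03 ± 0.16), Creb3l1 (1.00 ± 0.22) and Atf6 (0.54 ± 0.11) were all higher in goblet-like cells (edgeR adjusted p from 0.000372 to 0.0171).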

How the data were processed

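Single-cell 3′ libraries (10x Genomics, v2 chemistry, per the labels' protocols) were deposited by the authors as raw UMI counts per gene and barcode, made with Cell Ranger 2.1.1 on mm10, per the submitters' processing notes. The sources used here do not say how reads that match several genes were treated. The members and all gene lists were chosen with earlier results of these data known.

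A barcode needed 500 genes or more and a mitochondrial share of 20% or less, which 10522 of 10827 met. Scrublet's own threshold marked 0.171% of them, so the highest scores were removed at 0.8% per 1000 cells, 279 in all, with scanpy 1.11.5. The 2000 most variable genes, without any of 393 listed genes, gave 30 principal components. Cells were joined to 5 neighbours in each library and clustered with Leiden at resolution 1.0. Class names, with the suffix "-like", were given to clusters with 3 or more markers of 1 class, and fewer of all others, among their 50 leading genes. After the data had been seen, both absorptive lists were counted as 1 class, and clusters with 3 markers of another class were clustered once more.

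For each class and library the UMI counts of all cells were added up, and these sums were tested with edgeR 4.0.16 (quasi-likelihood, TMM, a filterByExpr minimum of 10 counts, Benjamini-Hochberg over all tested genes), with DESeq2 1.42.0 as an alternative. The tests were tried on simulated counts. Each standard error of an edgeR difference is the size of the log2 difference divided by the square root of the test's F statistic. Counting intervals are exact Clopper-Pearson. CPM are scaled to total UMIs of the class and carry no TMM factor, and 3′ counts are not divided by length, so levels are compared between libraries and not between genes. Genes named are, per step and comparison, the called member with the largest change, members against the direction of their step, sets of paralogs, and, of the other pathway genes, the 2 called genes with the largest change in each direction and the transcription factors Xbp1, Atf6, Creb3l1 and Creb3l4, of which the text gives a part. In the comparison of clusters and in the interaction only called genes are named. Other alternatives were the removal of the count filter, of abundant genes or of single libraries, thinning to 5000 UMIs, other clusterings, and a replicate block. Promoter windows are from RefSeq (GRCm38.p6), and the orientation of 41 of 47 was found in GENCODE M21 transcripts.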

Additional observations from a re-analysis of the deposited data

Results flagged for a closer look

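The goblet-like minus absorptive-like difference of 5 named members differed between DC and Si8 by a test of that difference (edgeR quasi-likelihood interaction term, DC minus Si8, n = 2 libraries per region). Sec11c was at -1.09 (adjusted p = 0.00138), Tmed3 at -0.71 (0.0277), Sec24d at -0.71 (0.0474), Ssr4 at -0.63 (0.0273) and Sar1b at 0.46 (0.0449). Sec11c was the only 1 of them called with each library left out. Sec11c and Sar1b were also called with library totals alone. DESeq2 called Sec11c and Ssr4, and with thinned cells or with doublets kept only Sec11c of the 5 was called. The adjusted p of Sar1b was 0.252, 0.155 and 0.0552 in these 3 fits.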

How the results depend on the processing

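Apart from Tmed6, each member stood above 10 CPM in goblet-like cells of every library, and the 2 libraries per region limit the tests. With thinned cells 42 members were called between the regions in goblet-like cells. In goblet-like cells the number of members lower in DC was 26 with library totals alone (3 higher), 32 with cycling-like cells added, and 3, 10 and 6 in clusters 7, 10 and 11 alone; it ranged from 43 to 47 as each library was left out, with 0 higher, and 42 members were called in each of those fits. In absorptive-like cells it was 12 with library totals alone and 11 with thinned cells, and ranged from 4 to 33 as libraries were left out. Between classes 2 members were lower with library totals alone, and leaving out libraries gave 43 to 48 higher and 1 lower.

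For the interaction the members lower and higher numbered 1 and 2 with library totals alone, 2 and 0 with DESeq2, 1 and 0 with thinned cells, 1 and 0 with doublets kept, 0 higher without the count filter, and 2 higher with the largest absorptive-like cluster alone, a setting chosen after seeing the data; leaving out libraries gave 1 to 21 lower and 0 to 1 higher. For clusters 2 and 4 the members higher numbered 23 with library totals alone and 1 with DESeq2, 1 was lower with thinned cells, and leaving out libraries gave 1 higher and 0 lower each time. The pair 5 and 4, chosen after seeing the members' own shares and so no independent test of them, gave 11 higher and 1 lower. The summed share differed by -0.404 percentage points in the main setting and by -0.821 without the 10 most abundant genes. With thinned cells the difference was -0.332, and for the mean of the share per cell -0.323. The cause of these shifts was not tested.

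With library totals alone 13 members changed sign in goblet-like cells, to log2 differences of 0.0259 for Sar1b, 0.043 for Ddost, 0.0636 for Srp14, 0.0761 for Arcn1, 0.139 for Srp19, 0.148 for Srp72, 0.152 for Copa, 0.153 for Copb1, 0.251 for Sec23a, 0.276 for Sec62, 0.354 for Sec31a, 0.358 for Sec63 and 0.423 for Sec24a; Xbp1 went to 0.255 and Atf6 to 0.123. Single clusters gave 0.118 for Sec23a (cluster 5), 0.0353 for Sec24a (cluster 4), 0.0896 for Sec24a and 0.0403 for Sec11a (cluster 7), and for Atf6 0.014 (cluster 4), 0.0581 (cluster 7) and 1.55 (cluster 11). In absorptive-like cells 12 members changed sign with library totals alone, 0.124 for Sar1a, 0.172 for Sec24a, 0.0324 for Kdelr1, 0.0657 for Tmed3, and Srp14, Srp19, Srp72, Ddost, Sec31a, Copa, Copb1 and Arcn1 between 0.000342 and 0.259; Xbp1 was at 0.0537 and Atf6 at 0.077, and Sec24a was at 0.0093 with regions clustered separately. With libraries left out the ranges there were -0.323 to 0.052 for Sar1a, -0.264 to 0.0522 for Sec24a, -0.455 to 0.0728 for Tmed3 and -0.479 to 0.0714 for Xbp1.

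The labels give both regions replicate numbers 1 and 2 and do not say that a number marks a shared animal or day. Deviations of same-numbered libraries correlated at 0.259 across genes in goblet-like and 0.168 in absorptive-like cells. With replicate number as a block 49 members were lower in goblet-like cells, 33 in absorptive-like cells, 51 higher and 1 lower between classes, and 2 higher between clusters 2 and 4, while the interaction had 1 lower and 0 higher.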
